A study of Danio rerio with 12 samples.

Results

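Heart cells of zebrafish embryos that carried EGFP fluorescence (GFP+) were compared with heart cells that did not (GFP-) at 48 hours post-fertilization (hpf). The comparison used every library that the sample labels place at this stage, 3 GFP+ and 3 GFP- libraries, which are 6 of the 12 libraries of the series. The others are the same fractions at 72 hpf. All embryos came from the enhancer trap line *sqet31Et*, in which a basal promoter of the keratin gene *krt4* drives EGFP under an enhancer that has not been identified, and the insertion lies in repetitive DNA. By the study's account the line marks the atrioventricular canal (AVC) strongly and some other myocardial cells weakly. From 72 hpf the study also saw EGFP in the bulbus arteriosus, which it describes as mainly smooth muscle. Hearts were picked by hand from the remaining tissue of pooled embryos, dissociated with trypsin, and sorted with gates that had been set on hearts of wild-type embryos. Neither fraction is therefore a pure cell type, and each library is a pool of many embryos.

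The AVC is the constriction between atrium and ventricle. Its myocardium conducts slowly, expresses Bmp and T-box genes and keeps out the genes of the working chambers, while the endocardium beside it receives Bmp, Notch and Wnt signals and forms the valves through cardiac jelly and an epithelial to mesenchymal transition. By the study's account, formation of the canal has begun before 48 hpf, and the endocardial cushions from which valves develop appear after it. A heart at this age also holds chamber myocardium, endocardium, blood, arriving epicardium and cells of the outflow tract, and liver, epidermis and head tissues lie close to it.

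Each library is RNA with poly-A tails, amplified as full-length cDNA, and the deposited values are counts per Ensembl gene. At 48 hpf the totals were 34163013, 32566421 and 25554971 counts in GFP+ and 35727715, 30868169 and 29690413 counts in GFP- replicates 1, 2 and 3, and 24792 to 25723 genes were detected in a library. Levels are given as CPM (counts scaled by the TMM-normalized library size), with the libraries always in the order of replicates 1, 2 and 3, or as mean ± SD (n = 3). A difference is given as log2FC (GFP+ over GFP-) with an approximate standard error (SE), and padj comes from the quasi-likelihood test of edgeR, adjusted by the Benjamini-Hochberg method over all 23222 genes tested. The SE was derived from that test, as the absolute log2FC divided by the square root of the F statistic. "Higher" and "lower" mean a padj below 0.05. Rank correlations across genes were 0.970 to 0.982 within a fraction and 0.843 to 0.897 between the fractions. Of all genes tested, 3381 (14.6%) were higher in GFP+ and 3339 (14.4%) lower, and the median log2FC over all genes was 0.0323. With an absolute log2FC above 2 as well, 3474 genes passed, of which 1484 (6.39% of all genes) were higher and 1990 (8.57%) lower. Every GFP+ library lay above every GFP- library in 6448 genes (27.8%), and every GFP- library above every GFP+ library in 6364 (27.4%). These shares are those of all genes and stand beside each list of genes below. The lists were chosen with earlier results of these data known, and 354 of their 641 distinct genes were matched through the study's supplement. Of the tested genes named from that supplement 59.7% passed, so an excess of a list over these shares is not independent evidence. In these bulk samples, fewer cells of a type and less RNA per cell cannot be told apart. The sources describe the 3 libraries of a group once as biological and once as technical replicates, so SD, SE and padj may cover technical spread only. The GFP- libraries, labelled as the remaining heart cells, had low summed levels of heart muscle genes (214 to 617 CPM) and higher sums of neuronal, retinal and red cell genes than the GFP+ libraries, GFP+ replicate 2 had the lowest sums of liver and epidermal genes among the GFP+ libraries, and lens genes were high in replicate 2 of each fraction only.

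The study placed some of these transcripts in the embryo by in situ hybridization. The forward primers of the probes for the genes *bves*, *wnt2bb*, *tgfb2*, *tbx18* and *hey2* are shown because the levels of all of them are given below, for myocardium, Wnt signals, Tgf-beta signals, epicardium and Notch targets.
bves: ccatttcccaaacagcttgaccg
wnt2bb: aaggtctacaccggtttccg
tgfb2: acttgtacgtcttgagcctcc
tbx18: caagtcctcgtgcaatcagc
hey2: gtttttggtgtctgtacctgc

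The contractile genes of cardiomyocytes separated the fractions without exception. All 26 tested members were higher in GFP+, against 14.6% of all genes, with a median log2FC of 4.23 and a range of 2.23 to 7.81. All 26 were matched through names in the study's supplementary tables, which hold mainly genes called in these libraries. This count is therefore not independent evidence. *myl7* (ENSDARG00000019096), the regulatory myosin light chain of the embryonic heart, had 654, 709 and 1329.9 CPM in GFP+ cells, against 12.5, 35.9 and 6.59 CPM in GFP- cells (log2FC 5.61, SE 0.81, padj = 0.00040). *tnnt2a* (ENSDARG00000020610), cardiac troponin T, had 240.3, 314 and 387 CPM in GFP+ cells, against 28.1, 25.1 and 6.62 CPM in GFP- cells (log2FC 3.97, SE 0.64, padj = 0.00073). *ttn.2*, a titin that acts as the molecular spring of the sarcomere, had 332, 427 and 492 CPM in GFP+ cells, against 10.5, 47.2 and 9.39 CPM in GFP- cells (log2FC 4.22, SE 0.64, padj = 0.00053). In all of these genes every GFP+ library lay above every GFP- library, and GFP- replicate 3 was the lowest library. The atrial myosin *myh6* had 71.8 ± 19.4 CPM (GFP+) and 0.321 ± 0.277 CPM (GFP-) and the ventricular myosin *myh7* 1607 ± 557 CPM (GFP+) and 68.6 ± 80.6 CPM (GFP-) (log2FC 7.81 and 4.55, padj = 0.00012 and 0.0011). The smallest differences on the list were those of *tpm4a*, a tropomyosin (log2FC 2.23), and *unc45b*, a myosin chaperone (log2FC 2.26). The Popeye genes *popdc2* and *bves*, membrane proteins that bind cyclic AMP in heart muscle, were higher with a log2FC of 3.21 and 2.7, and *bves* had 70.4 ± 24.8 CPM (GFP+) and 10.8 ± 2.84 CPM (GFP-). The summed level of the list was 4656 to 8489.7 CPM in the GFP+ and 214 to 617 CPM in the GFP- libraries.

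Genes of working chamber myocardium, which AVC myocardium is known to keep low, did not move together. Of them, 2 of 7 tested members were higher and 2 lower in GFP+. The higher members were *nppa* and *nppb*, natriuretic peptides that mark expanding chambers. *nppa* had 167, 149 and 367 CPM in GFP+ cells, against 2.54, 11.1 and 0.823 CPM in GFP- cells (log2FC 5.56, SE 0.81, padj = 0.00041). *nppb* had 91.9, 71.5 and 148 CPM in GFP+ cells, against 0.899, 4.14 and 0.296 CPM in GFP- cells (log2FC 5.86, SE 0.94, padj = 0.00071). Neither gene overlapped between the fractions. The gap junction gene *gja5a*, by contrast, had 2.45, 6.12 and 3.72 CPM in GFP+ cells, against 2.49, 3.81 and 1.68 CPM in GFP- cells, with groups that overlapped (log2FC 0.62, padj = 0.37). Both Iroquois copies named *IRX1* in the name table, transcription factors of ventricle and of brain, were lower: ENSDARG00000056594 had 2.98 ± 2.43 CPM (GFP+) and 25.9 ± 10.5 CPM (GFP-) (log2FC -3.13, padj = 0.0015) and ENSDARG00000101831 10.24 ± 4.68 CPM (GFP+) and 55.8 ± 12.6 CPM (GFP-) (log2FC -2.45, padj = 0.00068).

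Calcium handling and ion channel genes of the heart were mostly higher in GFP+ (10 of 14 tested members were higher and 0 lower, median log2FC 2.15). The sarcoplasmic calcium pump *atp2a2a* had 66.9, 92.6 and 128 CPM in GFP+ cells, against 15.8, 22.8 and 11.7 CPM in GFP- cells (log2FC 2.52, SE 0.49, padj = 0.0023), and the sodium-calcium exchanger *slc8a1a* had 41.5, 55.9 and 92.3 CPM in GFP+ cells, against 2.85, 8.77 and 3.42 CPM in GFP- cells (log2FC 3.65, SE 0.58, padj = 0.00070). The L-type channel *cacna1c*, which carries the plateau current, did not follow them, with 4.34, 5.32 and 3.89 CPM in GFP+ cells, against 2.85, 5.32 and 3.95 CPM in GFP- cells (log2FC 0.16, SE 0.52, padj = 0.85). Calsequestrin (*casq2*, log2FC 5.01), which stores calcium, had 89.5 ± 28.89 CPM (GFP+) and 2.77 ± 2.34 CPM (GFP-), and the potassium channel *kcnh6a*, which ends the action potential, had 23.3 ± 1.01 CPM (GFP+) and 4.42 ± 1.80 CPM (GFP-) (log2FC 2.40). Junctophilin (*jph2*), which ties the calcium store to the cell membrane, had a log2FC of 3.18 (padj = 0.00067).

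**Figure D1:**
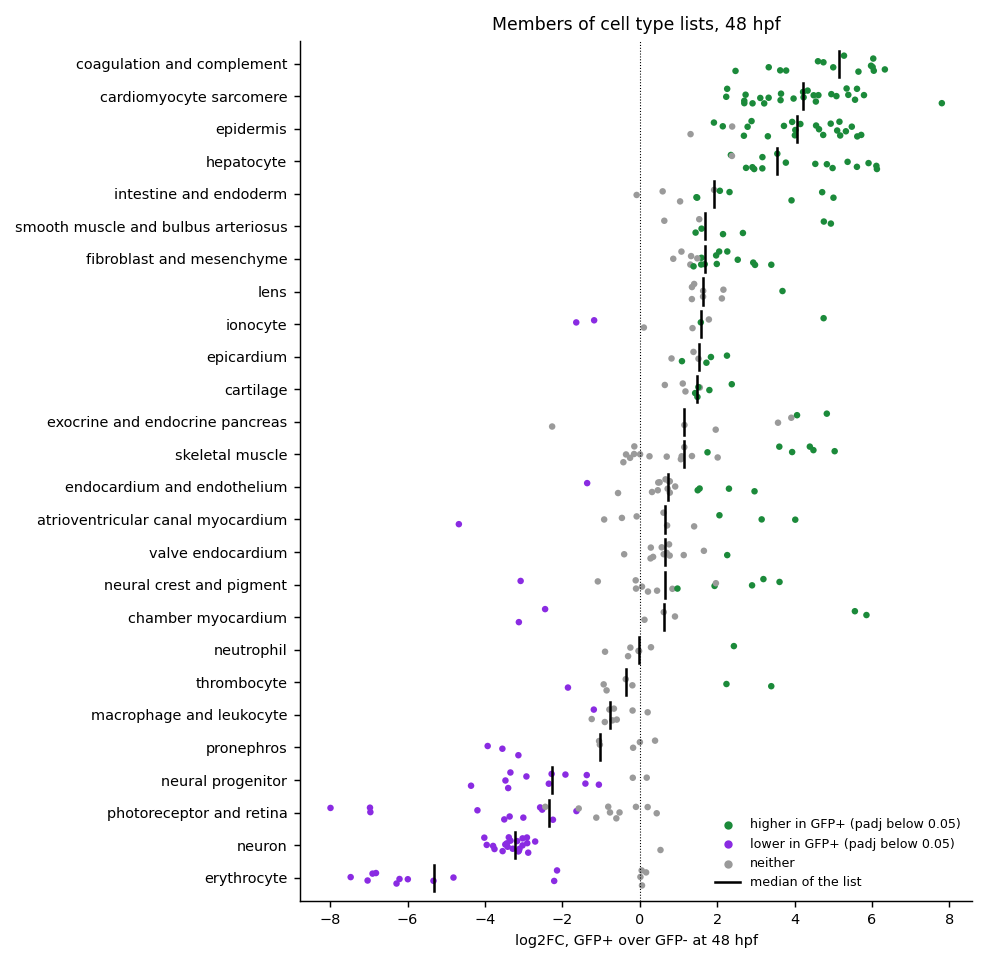
Each point is a gene of a cell type list, placed by its log2FC (GFP+ over GFP- at 48 hpf), in green where higher in GFP+ and in purple where lower at padj below 0.05, with the median of each list as a black bar. Genes at or under 3 counts in every library of a fraction are not drawn. Liver, cardiomyocyte and epidermis lists lie almost wholly to the right, neuron genes lie mostly to the left, and 11 of 15 erythrocyte genes lie to the left as purple points.

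Markers of AVC myocardium were less uniform than contractile genes: 3 of 10 tested members were higher and 1 lower in GFP+, and the median log2FC was 0.66. *bmp4* (ENSDARG00000019995), the Bmp ligand of the canal, had 82.7, 80.1 and 79.9 CPM in GFP+ cells, against 20.1, 19.5 and 18.7 CPM in GFP- cells (log2FC 2.06, SE 0.23, padj = 0.00012). The SD over the 3 libraries was 1.56 CPM in GFP+ and 0.710 CPM in GFP-. The T-box repressor *tbx2b*, which blocks the chamber program, had 63.8, 69.8 and 55.5 CPM in GFP+ cells, against 98.1, 84.4 and 78.2 CPM in GFP- cells, with all GFP- libraries above all GFP+ libraries but no padj below the threshold (log2FC -0.46, SE 0.26, padj = 0.21). Its relatives *tbx2a* and *tbx3a* had a log2FC of -0.08 (padj = 0.86) and -0.92 (padj = 0.18), and *tbx3a* passed with the replicate block (block padj = 0.048). The GFP- libraries had higher sums of neuronal and retinal genes, given below, and their part in these T-box values was not tested. *has2*, which makes the hyaluronan of the cardiac jelly, had 98.6, 202 and 103 CPM in GFP+ cells, against 84.2, 145 and 34.3 CPM in GFP- cells, and the groups overlapped (log2FC 0.61, SE 0.55, padj = 0.44). Its GFP+ library was above the GFP- library within each replicate number. The members that were higher were *bmp4*, the Wnt ligand *wnt2bb* (3.81 ± 0.876 CPM (GFP+) and 0.228 ± 0.118 CPM (GFP-)) and the homeobox gene *hnf1ba* (39.96 ± 9.67 CPM (GFP+) and 4.50 ± 2.45 CPM (GFP-)), and the lower one was the forkhead gene *foxn4* (5.64 ± 0.298 CPM (GFP+) and 144 ± 22.4 CPM (GFP-)), also a gene of retinal progenitors. With the replicate block, which pairs the libraries of the same number, 5 members were higher and 2 lower. The summed level of the list was 652 to 775 CPM in the GFP+ and 512 to 682 CPM in the GFP- libraries, which overlapped between the fractions.

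Of transcription factors that build the heart, 8 of 14 tested members were higher and 0 lower in GFP+ (median log2FC 1.23). *nkx2.5*, the homeobox factor of early heart muscle, had 21.5, 18.9 and 25.1 CPM in GFP+ cells, against 3.21, 2.08 and 2.47 CPM in GFP- cells (log2FC 3.07, SE 0.35, padj = 0.00012), and its relative *nkx2.7* had 6.88 ± 3.57 CPM (GFP+) and 0.319 ± 0.272 CPM (GFP-) (log2FC 4.41, padj = 0.0022). *tbx5a*, a T-box activator, had 51.6, 94.3 and 30.8 CPM in GFP+ cells, against 20.2, 23.1 and 9.98 CPM in GFP- cells (log2FC 1.73, SE 0.55, padj = 0.032). It did not pass without GFP+ replicate 1, GFP+ replicate 2, GFP- replicate 1, GFP- replicate 2 or GFP- replicate 3 (padj 0.050 to 0.15). *gata4* overlapped between the fractions, with 13.2, 20.1 and 13.1 CPM in GFP+ cells, against 6.27, 16.8 and 3.16 CPM in GFP- cells (log2FC 0.82, SE 0.50, padj = 0.25), while *gata6* was higher (log2FC 2.07, padj = 0.0051). Within each replicate number *gata4* was above in the GFP+ library. *tbx1*, a factor of pharyngeal and outflow progenitors, was higher with 27.8 ± 3.68 CPM (GFP+) and 5.04 ± 0.776 CPM (GFP-). *tbx20* and *gata5*, at a log2FC of 0.91 (padj = 0.11) and 0.79 (padj = 0.25), passed with the replicate block (block padj = 0.021 and 0.046). The list had 5 higher members without GFP+ replicate 2 and 4 without GFP- replicate 3.

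Pacemaker genes went in both directions (3 of 10 tested members were higher and 2 lower). *hcn4*, the channel of the pacemaker current, had 8.31, 11.5 and 8.14 CPM in GFP+ cells, against 6.68, 6.58 and 5.01 CPM in GFP- cells, with the GFP+ libraries above the GFP- libraries by less than the test could separate (log2FC 0.62, SE 0.38, padj = 0.25). *shox2*, a factor of the sinus node in mammals, was lower with 4.16, 5.24 and 3.68 CPM in GFP+ cells, against 19.3, 16.1 and 39.5 CPM in GFP- cells (log2FC -2.52, SE 0.39, padj = 0.00061). *cacna1g*, a T-type calcium channel, was higher with 21.3 ± 5.51 CPM (GFP+) and 8.01 ± 1.13 CPM (GFP-) (log2FC 1.41, padj = 0.0068). *tbx18*, given below with the epicardium, is also on this list and was its highest member (log2FC 1.72). Its values overlapped between the fractions, and it did not pass without several of the libraries. *isl1*, a factor of the sinoatrial pacemaker, had 86.9 ± 16.8 CPM (GFP+) and 124 ± 9.72 CPM (GFP-) (log2FC -0.52, padj = 0.30). Summed neuronal genes were at 1179 to 1493 CPM in the GFP+ and 5675 to 10618 CPM in the GFP- libraries. Their part in the values of *shox2* and *isl1* was not tested. The pacemaker list had 1 higher member without GFP+ replicate 1, GFP- replicate 1 or GFP- replicate 3.

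Connexins form the gap junctions that set conduction speed, and 9 of 13 tested members were higher and 1 lower in GFP+. Most carry their zebrafish names only in the study's supplementary tables, which hold mainly genes called in these libraries, so this count is not independent evidence. *cx36.7* had 2.26, 3.64 and 3.50 CPM in GFP+ cells, against 0.0257, 0.164 and 0.0329 CPM in GFP- cells (log2FC 5.32, SE 0.66, padj = 0.00018). *gja3* had 0.342, 0.931 and 0.460 CPM (GFP+) and 0, 0.0274 and 0 CPM (GFP-), at most 3 counts in any GFP- library. *cx43.4* did not pass, with 253, 274 and 296 CPM in GFP+ cells, against 292, 239 and 362 CPM in GFP- cells (log2FC -0.12, SE 0.24, padj = 0.76). *cx43*, a widespread connexin, was higher (log2FC 1.02, padj = 0.016) and did not pass without GFP+ replicate 3, GFP- replicate 1 or GFP- replicate 3 (padj 0.059 to 0.063), and *cx52.6* was lower, with 0.00886 CPM (GFP+) and 0.336 CPM (GFP-) on average and at most 3 counts in any GFP+ library. *cx52.6* did not pass without GFP+ replicate 1, GFP+ replicate 3 or GFP- replicate 1 (padj 0.060 to 0.074). The connexin list had 5 higher members without GFP+ replicate 3.

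Endocardial genes are set beside the shares of all genes, 14.6% higher and 14.4% lower. Of the valve endocardium list, 1 of 12 tested members were higher and 0 lower in GFP+, both smaller shares than those of all genes. With the replicate block 3 were higher. *notch1b*, a Notch receptor of valve endocardium, had 65.1, 103 and 62.7 CPM in GFP+ cells, against 95.6, 149 and 61.3 CPM in GFP- cells (log2FC -0.40, SE 0.44, padj = 0.53). *klf2a*, a factor that responds to blood flow, had 275, 326 and 225 CPM in GFP+ cells, against 186, 226 and 97.3 CPM in GFP- cells (log2FC 0.70, SE 0.31, padj = 0.12), and it was higher with the replicate block (block padj = 0.032). *nfatc1*, a factor of valve endocardium, had 74.1, 147 and 72.9 CPM in GFP+ cells, against 62.3, 104 and 25.5 CPM in GFP- cells (log2FC 0.62, SE 0.60, padj = 0.48). For *klf2a* and *nfatc1* the GFP+ library was above the GFP- library within each replicate number. The higher gene was *fn1b*, a fibronectin, with 42.2 ± 16.1 CPM (GFP+) and 8.81 ± 1.58 CPM (GFP-) (log2FC 2.26, padj = 0.0012). Without GFP- replicate 2 the number of higher members was 2.

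Of the general list of endocardium and endothelium, 4 of 16 tested members were higher and 1 lower. The share higher was above the 14.6% of all genes, and the share lower was below the 14.4%. The vascular cadherin *cdh5* had 441, 819 and 451 CPM in GFP+ cells, against 314, 707 and 179 CPM in GFP- cells (log2FC 0.51, SE 0.51, padj = 0.50). The receptors *kdrl* and *tie1* overlapped as well: *kdrl* had 139.6, 234 and 129 CPM in GFP+ cells, against 117, 188 and 59.18 CPM in GFP- cells (log2FC 0.46, SE 0.51, padj = 0.54), and *tie1* had 218, 442 and 207 CPM in GFP+ cells, against 158, 386 and 79.3 CPM in GFP- cells (log2FC 0.48, SE 0.63, padj = 0.62). In these genes replicate 2 was the highest library of each fraction and the fractions overlapped. Within each replicate number, however, the GFP+ library was above the GFP- library for *cdh5*, *kdrl* and *tie1*, so the overlap lay between replicate numbers. The higher members were *flt4* (log2FC 1.55), a receptor of lymphatic and venous endothelium, *plvapb* (log2FC 1.5), a protein of endothelial diaphragms, and *stab2* and *lyve1b*, receptors that take up hyaluronan in veins and lymphatics (log2FC 2.30 and 2.96). *flt4* did not pass without GFP+ replicate 3, GFP- replicate 1 or GFP- replicate 3 (padj 0.056 to 0.065), and *plvapb* did not pass without GFP+ replicate 1 or GFP- replicate 3 (padj 0.057 to 0.061). *stab2* and *lyve1b* did not pass with the replicate block (block padj = 0.16 and 0.16), nor without 4 (*stab2*) or 5 (*lyve1b*) of the 6 libraries left out in turn. The blood and endothelium factor *tal1* was lower (log2FC -1.36, padj = 0.016) and did not pass without GFP+ replicate 1, GFP+ replicate 3 or GFP- replicate 3 (padj 0.060 to 0.068). The endothelium list had 2 higher members without GFP+ replicate 1 or GFP- replicate 2, 1 without GFP+ replicate 3 or GFP- replicate 1 and 0 without GFP- replicate 3.

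Among genes of the cardiac jelly, the matrix between myocardium and endocardium, 3 of 16 tested members were higher and 1 lower, and 6 were higher with the replicate block. In the main fit the share higher was 18.8%, near the 14.6% of all genes, and the share lower was 6.25%, below the 14.4%. The proteoglycan *vcana* had 9.94, 10.5 and 6.90 CPM in GFP+ cells, against 3.85, 5.29 and 1.15 CPM in GFP- cells (log2FC 1.4, SE 0.54, padj = 0.068, block padj = 0.038), and the link protein *hapln1a*, which ties hyaluronan to versican, had 646, 1001 and 630.4 CPM in GFP+ cells, against 442, 461 and 552 CPM in GFP- cells (log2FC 0.65, SE 0.57, padj = 0.44). Both had all GFP+ libraries above all GFP- libraries without passing the test. The hyaluronan receptor *cd44a* was higher with 8.56 ± 5.73 CPM (GFP+) and 0.103 ± 0.156 CPM (GFP-) (log2FC 6.24, padj = 0.00044), as was *ugdh*, the enzyme that supplies the sugar for hyaluronan (log2FC 1.1, padj = 0.0045). The remaining higher member was *fn1b*, given above with the valve endocardium.

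Genes of the epicardium, the outer covering of the heart, stood on the GFP+ side, but few calls outlasted the loss of a library (4 of 7 tested members were higher and 0 lower, median log2FC 1.52). *tcf21* had 10.204, 4.999 and 11.6 CPM in GFP+ cells, against 3.44, 3.29 and 2.602 CPM in GFP- cells (log2FC 1.52, SE 0.70, padj = 0.13), and it passed with the replicate block (block padj = 0.024). *wt1a* had 1.31, 0.505 and 1.45 CPM in GFP+ cells, against 0.591, 0.164 and 0.132 CPM in GFP- cells (log2FC 1.84, SE 0.62, padj = 0.041), and it did not pass without GFP+ replicate 1, GFP+ replicate 3, GFP- replicate 2 or GFP- replicate 3 (padj 0.11 to 0.16). *tbx18* had 29.8, 49.1 and 9.91 CPM in GFP+ cells, against 9.87, 12.6 and 4.48 CPM in GFP- cells (log2FC 1.72, SE 0.53, padj = 0.026), and it did not pass without GFP+ replicate 1, GFP+ replicate 2, GFP- replicate 1 or GFP- replicate 3 (padj 0.061 to 0.14). Values of *wt1a* and *tbx18* overlapped between the fractions, in GFP+ replicate 2 and GFP+ replicate 3. The epicardium list had 2 higher members without GFP+ replicate 3, 1 without GFP+ replicate 1 and 0 without GFP- replicate 3.

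Smooth muscle genes were mostly higher in GFP+ at this stage (6 of 9 tested members were higher and 0 lower, median log2FC 1.69). All 9 were matched through names in the study's supplementary tables, so this count is not independent evidence. *acta2*, smooth muscle actin, which embryonic heart muscle also uses, had 40.1, 39.2 and 79.5 CPM in GFP+ cells, against 1.46, 3.23 and 1.15 CPM in GFP- cells (log2FC 4.76, SE 0.50, padj = 9.8e-05). *tagln*, an actin-binding protein of smooth muscle, had 5.29, 1.89 and 3.65 CPM in GFP+ cells, against 0.129, 0.0548 and 0.165 CPM in GFP- cells (log2FC 4.94, SE 0.89, padj = 0.0014). Neither overlapped between the fractions. The myosin kinase *mylka* had 34.7, 20.2 and 20.2 CPM in GFP+ cells, against 20.02, 15.11 and 13.3 CPM in GFP- cells, which did not pass (log2FC 0.63, SE 0.36, padj = 0.21). *fbln5*, a protein of elastic fibres, was higher with 43.8 ± 9.31 CPM (GFP+) and 9.87 ± 3.65 CPM (GFP-), and the elastin gene *elnb* had at most 3 counts in each of the 6 libraries, so that no difference of it was detectable at this depth.

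Genes of fibroblasts and mesenchyme were higher more often than not (12 of 17 tested members were higher and 0 lower, median log2FC 1.68). *pdgfra*, a growth factor receptor of mesenchyme, had 179, 220.4 and 169 CPM in GFP+ cells, against 55.4, 83.3 and 50.9 CPM in GFP- cells (log2FC 1.59, SE 0.46, padj = 0.021). It did not pass without GFP+ replicate 2, GFP- replicate 1 or GFP- replicate 3 (padj 0.063 to 0.089). The collagen *col1a2* had 1052, 742 and 584 CPM in GFP+ cells, against 338, 321 and 128 CPM in GFP- cells (log2FC 1.59, SE 0.53, padj = 0.039), and it did not pass without any 1 of the 6 libraries (padj 0.053 to 0.15). *col1a1a* overlapped, with 3472, 8118 and 2220.4 CPM in GFP+ cells, against 2451, 2414 and 646 CPM in GFP- cells (log2FC 1.33, SE 0.75, padj = 0.22). Within each replicate number it was above in the GFP+ library. Periostins were higher, *postna* with a log2FC of 2.93 and *postnb* with 2.98, as were the matrix proteoglycans lumican (*lum*, log2FC 3.40) and decorin (*dcn*, log2FC 1.97) and the mesenchymal homeobox factors *prrx1a* and *prrx1b* (log2FC 2.26 and 2.05). The summed level was 4534 to 11253 CPM in the GFP+ and 1210.2 to 3800.2 CPM in the GFP- libraries, highest in replicate 2 of each fraction.

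The factors that drive the epithelial to mesenchymal transition split by family (7 of 11 tested members were higher and 2 lower). Snail and Twist genes were higher. *snai2* had 119, 226 and 197 CPM in GFP+ cells, against 25.1, 36.2 and 41.3 CPM in GFP- cells (log2FC 2.40, SE 0.35, padj = 0.00040). *snai1b* had 20.99, 19.7 and 23.2 CPM in GFP+ cells, against 9.79, 13.5 and 9.02 CPM in GFP- cells (log2FC 0.98, SE 0.25, padj = 0.011) and did not pass without GFP- replicate 1 or GFP- replicate 3 (padj 0.051 to 0.060). *twist1b* had 7.63, 16.3 and 18.9 CPM in GFP+ cells, against 2.49, 3.48 and 5.93 CPM in GFP- cells (log2FC 1.85, SE 0.53, padj = 0.019) and did not pass without GFP+ replicate 2, GFP+ replicate 3, GFP- replicate 1 or GFP- replicate 2 (padj 0.052 to 0.082). *snai1a*, *twist1a*, *twist2* and *twist3* were higher too, with a log2FC of 1.81, 2.53, 2.40 and 1.98. The Zeb genes, which neurons also express, were not higher: *zeb2a* and *zeb2* were lower (log2FC -1.5 and -1.77, padj = 0.014 and 0.0015; *zeb2a* did not pass without GFP+ replicate 1 or GFP+ replicate 3 (padj 0.054 to 0.065)), and *zeb1a* and *zeb1* did not pass. Of genes of cartilage, some of which valve cells share, 5 of 9 tested members were higher and 0 lower. *sox9a*, the master factor of cartilage, had 19.2, 31.2 and 22.7 CPM in GFP+ cells, against 10.3, 8.58 and 8.20 CPM in GFP- cells (log2FC 1.43, SE 0.35, padj = 0.0077), while *col2a1a* had 32.9, 73.9 and 31.3 CPM in GFP+ cells, against 18.1, 32.5 and 13.3 CPM in GFP- cells (log2FC 1.11, SE 0.63, padj = 0.22). The cartilage list had 3 higher members without GFP+ replicate 1 or GFP- replicate 1 and 2 without GFP- replicate 3.

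**Figure D2:**
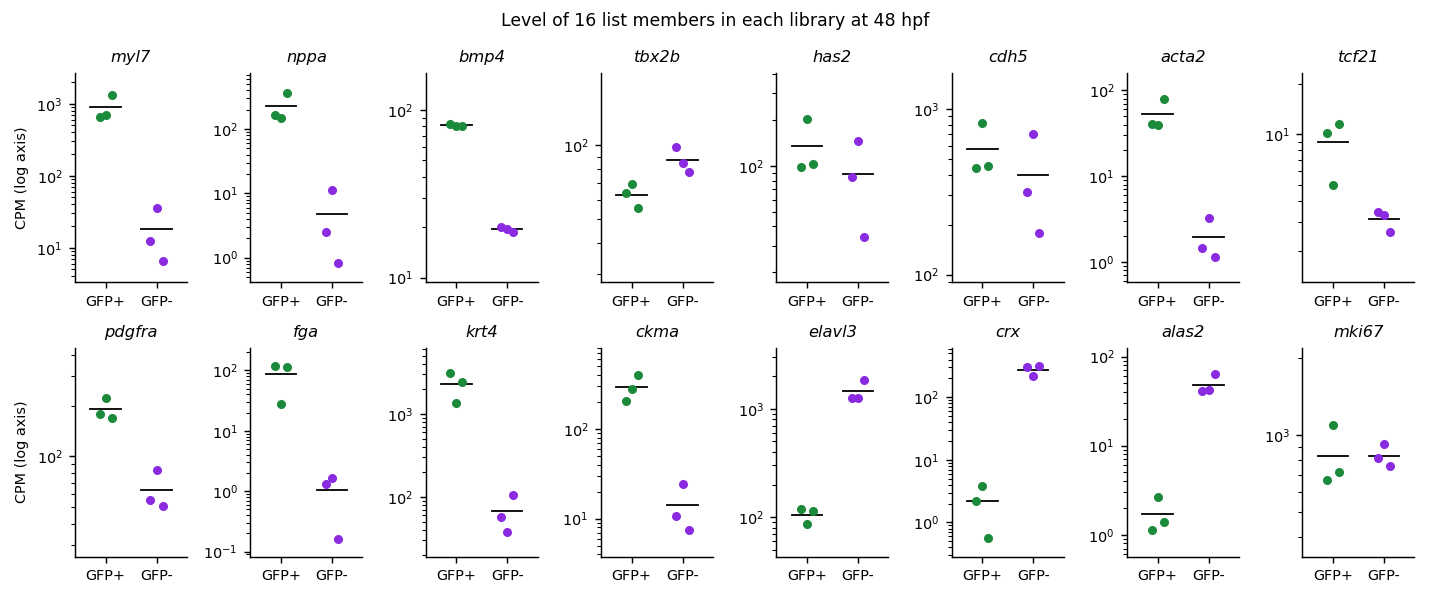
Points are CPM (log axis, scaled for each gene) of 16 list members in the 3 GFP+ (left, green) and 3 GFP- (right, purple) libraries at 48 hpf, and black lines are means. The genes myl7, nppa, bmp4, acta2, tcf21, pdgfra, fga, krt4 and ckma lie above in GFP+. The genes tbx2b, elavl3, crx and alas2 lie above in GFP-, and has2, cdh5 and mki67 overlap. Of the genes without overlap, tcf21 and tbx2b did not pass the test.

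Most genes of the liver were also higher in GFP+. Of the hepatocyte list, 17 of 19 tested members were higher and 0 lower in GFP+ (median log2FC 3.55), and of the coagulation and complement proteins that the liver secretes, 18 of 18 tested members were higher and 0 lower (median log2FC 5.14, or 4.87 with members at or under 3 counts in every GFP- library set to the bound that 3 counts give). *fabp10a*, a fatty acid binding protein that marks hepatocytes in zebrafish, had 9.76, 1.41 and 5.52 CPM in GFP+ cells, against 0.257, 0.0548 and 0 CPM in GFP- cells (log2FC 5.61, SE 1.02, padj = 0.0015). *tfa*, transferrin, had 744, 125 and 655 CPM in GFP+ cells, against 9.02, 13.4 and 2.87 CPM in GFP- cells (log2FC 5.91, SE 0.76, padj = 0.00022). *apoba*, an apolipoprotein, overlapped at GFP+ replicate 2, with 16.6, 2.42 and 8.14 CPM in GFP+ cells, against 0.360, 2.47 and 0.659 CPM in GFP- cells (log2FC 2.96, SE 0.83, padj = 0.018), and did not pass without GFP+ replicate 1, GFP- replicate 1 or GFP- replicate 3 (padj 0.067 to 0.083). GFP+ replicate 2 was the lowest GFP+ library for each of these genes.

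The fibrinogen chain *fga* had 119, 27.6 and 113 CPM in GFP+ cells, against 1.34, 1.67 and 0.165 CPM in GFP- cells (log2FC 6.33, SE 0.78, padj = 0.00017). Prothrombin (*f2*) had 76.1, 17.6 and 45.1 CPM in GFP+ cells, against 1.52, 1.73 and 0.296 CPM in GFP- cells (log2FC 5.28, SE 0.67, padj = 0.00021), and the complement protein *c3a.1* had 161, 62.6 and 129 CPM in GFP+ cells, against 2.13, 3.78 and 1.09 CPM in GFP- cells (log2FC 5.65, SE 0.66, padj = 0.00015). Liver regulators were higher as well, among them the nuclear receptor *hnf4a* (log2FC 2.75, 37.0 ± 12.2 CPM (GFP+) and 5.51 ± 1.19 CPM (GFP-)) and *cebpa* (log2FC 3.17), as was the liver enzyme *uox* (log2FC 6.13). Summed over the hepatocyte list the level was 494 to 1676 CPM in the GFP+ and 52.3 to 83.0 CPM in the GFP- libraries, and over the coagulation and complement list 233 to 870.1 CPM in the GFP+ and 10.4 to 23.3 CPM in the GFP- libraries. These values stand beside every result above that is higher in GFP+, and their part in those results was not tested.

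Other endoderm was mixed. Of the intestine and endoderm list, 7 of 11 tested members were higher and 0 lower. The higher ones include *gata6*, which is also on the list of heart factors. The intestinal fatty acid binding protein *fabp2* had 22.1, 6.20 and 20.9 CPM in GFP+ cells, against 0.283, 0.932 and 0.659 CPM in GFP- cells (log2FC 4.71, SE 0.86, padj = 0.0015), and the endodermal forkhead factor *foxa3* had 76.0, 25.8 and 72.1 CPM in GFP+ cells, against 1.21, 2.71 and 1.48 CPM in GFP- cells (log2FC 5.0, SE 0.49, padj = 7.7e-05). *cdx1b*, a homeobox factor of the gut, had 27.4, 15.4 and 38.0 CPM in GFP+ cells, against 8.56, 10.6 and 9.78 CPM in GFP- cells (log2FC 1.48, SE 0.42, padj = 0.019) and did not pass without GFP+ replicate 3, GFP- replicate 1 or GFP- replicate 3 (padj 0.058 to 0.090). Of the pancreas list, 2 of 13 tested members were higher, a share of 15.4% near the 14.6% of all genes, and 0 lower. Of the 13, 6 were at or under 3 counts in every library of a fraction, which limits what could be called. The summed level was 195.7 to 614 CPM in the GFP+ and 41.9 to 70.5 CPM in the GFP- libraries. The higher members were the pancreatic factor *pdx1* (log2FC 4.06) and the somatostatin gene *sst2* (log2FC 4.83). *pdx1* did not pass without GFP- replicate 3 (padj 0.054), and *sst2* did not pass without GFP+ replicate 1, GFP+ replicate 3, GFP- replicate 1 or GFP- replicate 3 (padj 0.055 to 0.12). Trypsinogen (*prss1*) had 10.5, 4.52 and 3.54 CPM in GFP+ cells, against 0.257, 0.576 and 0.395 CPM in GFP- cells, which passed with the replicate block (log2FC 3.92, SE 1.42, padj = 0.056, block padj = 0.018). Insulin (*ins*) had 8.07, 3.32 and 18.9 CPM in GFP+ cells, against 0.0257, 2.17 and 0.329 CPM in GFP- cells (log2FC 3.57, SE 1.44, padj = 0.082). *ela2*, an elastase, had 0, 0.0532 and 0 CPM (GFP+) and 0.334, 0.137 and 0.132 CPM (GFP-), at most 3 counts in any GFP+ library, and *cel.1* and *prss59.1*, which mark the exocrine pancreas, had 0 counts in all 6 libraries. The pancreas list had 1 higher member without GFP+ replicate 1, GFP+ replicate 3 or GFP- replicate 1 and 0 without GFP- replicate 3.

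Epidermal genes formed another block that was higher in GFP+ (23 of 25 tested members were higher and 0 lower, median log2FC 4.05). *krt4* (ENSDARG00000017624), a keratin of the outer skin layer and the gene whose promoter drives EGFP in this line, had 3159, 1339 and 2431 CPM in GFP+ cells, against 58.3, 38.2 and 105.3 CPM in GFP- cells (log2FC 5.10, SE 0.50, padj = 7.7e-05). *krt5*, a basal keratin, had 210.1, 67.1 and 90.5 CPM in GFP+ cells, against 1.21, 1.29 and 6.72 CPM in GFP- cells (log2FC 5.33, SE 0.78, padj = 0.00042). *tp63*, the factor of basal epidermis, had 39.8, 34.44 and 36.702 CPM in GFP+ cells, against 11.2, 8.80 and 9.42 CPM in GFP- cells (log2FC 1.92, SE 0.37, padj = 0.0020). None of them overlapped between the fractions, and for *krt4* and *krt5* GFP+ replicate 2 was the lowest GFP+ library. Epithelial junction genes were higher too, with E-cadherin (*cdh1*) at 126 ± 48.9 CPM (GFP+) and 7.80 ± 1.75 CPM (GFP-) (log2FC 4.02), *epcam* at 319 ± 113 CPM (GFP+) and 12.9 ± 3.70 CPM (GFP-) (log2FC 4.63) and the claudin *cldnb* at a log2FC of 4.15. The summed level of the list was 2810.1 to 6122 CPM in the GFP+ and 305 to 399 CPM in the GFP- libraries, and its part in the other differences was not tested.

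Ionocytes are the salt-transporting cells of the skin, and their genes went in both directions (5 of 11 tested members were higher and 3 lower). *foxi3a*, the factor that specifies them, had 0.395, 1.303 and 2.90 CPM (GFP+) and 0, 0 and 0 CPM (GFP-), at least 17.8-fold higher in GFP+ against the floor of 3 counts in each GFP- library (padj = 0.0012). Carbonic anhydrase *ca2* had 6.31, 3.70 and 9.03 CPM in GFP+ cells, against 1.62, 2.22 and 2.54 CPM in GFP- cells (log2FC 1.58, SE 0.34, padj = 0.0042). *trpv6*, an epithelial calcium channel, had 0, 0 and 0.0354 CPM (GFP+) and 0.642, 0.631 and 0.165 CPM (GFP-) and was lower (padj = 0.023), with at most 3 counts in any GFP+ library. It did not pass without GFP+ replicate 1, GFP+ replicate 2, GFP+ replicate 3, GFP- replicate 1 or GFP- replicate 2 (padj 0.051 to 0.083). Both genes named *ATP6V1A*, a subunit of the proton pump that neurons and other cells also use, were lower (log2FC -1.18 and -1.64). *ca15a* was higher with 0, 0.133 and 7.64 CPM (GFP+) and 0, 0 and 0 CPM (GFP-) (padj = 0.021), and GFP+ replicate 3 held nearly all of it. The summed level of the ionocyte list was 96.3 to 163 CPM in the GFP+ and 169 to 254 CPM in the GFP- libraries. Of the lens list, 1 of 8 tested members were higher and 0 lower, and 2 were higher with the replicate block. In the main fit the share higher was 12.5%, near the 14.6% of all genes. The crystallin *crybb1* had 0.237, 87.4 and 0.425 CPM in GFP+ cells, against 0.180, 19.96 and 0.0988 CPM in GFP- cells (log2FC 2.12, SE 1.84, padj = 0.43). Replicate 2 of each fraction held nearly all of it, and the summed lens level was 268 CPM in GFP+ replicate 2 and 75.2 CPM in GFP- replicate 2, with at most 4.53 CPM in any other library at 48 hpf. The lens count became 3 without GFP- replicate 2 and 0 without GFP+ replicate 2.

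Of skeletal muscle genes, 8 of 21 tested members were higher and 0 lower in GFP+ (median log2FC 1.15). The muscle creatine kinase *ckma* had 203, 282 and 406 CPM in GFP+ cells, against 10.7, 24.1 and 7.51 CPM in GFP- cells (log2FC 4.39, SE 0.47, padj = 0.00011). *myod1*, the factor that commits cells to skeletal muscle, had 8.07, 8.70 and 8.07 CPM in GFP+ cells, against 2.34, 2.77 and 2.27 CPM in GFP- cells (log2FC 1.75, SE 0.49, padj = 0.017) and did not pass without GFP- replicate 1 or GFP- replicate 3 (padj 0.059 to 0.074). The actin *acta1b*, which embryonic heart also uses, was higher with 309 ± 120.3 CPM (GFP+) and 9.40 ± 10.3 CPM (GFP-) (log2FC 5.04), but the fast myosins *myhz1.1* and *myhz2* had a log2FC of -0.42 and -0.36 (padj = 0.86 and 0.87) and the myogenic factor *myog* a log2FC of -0.15 (padj = 0.85). Of glycolytic genes, 9 of 17 tested members were higher and 1 lower. Of the muscle isoforms, *pgam2* had 14.7, 21.3 and 29.0 CPM in GFP+ cells, against 0.334, 1.26 and 0.0659 CPM in GFP- cells (log2FC 5.26, SE 0.77, padj = 0.00041), *aldoab* had 50.9, 70.2 and 108 CPM in GFP+ cells, against 2.699, 6.77 and 2.77 CPM in GFP- cells (log2FC 4.23, SE 0.47, padj = 0.00011), and the muscle enolase *eno3* had 334, 206 and 318 CPM in GFP+ cells, against 71.5, 71.4 and 55.0 CPM in GFP- cells (log2FC 2.12, SE 0.47, padj = 0.0045). *gapdh* was higher with 570.0 ± 166 CPM (GFP+) and 17.1 ± 12.9 CPM (GFP-), while its paralogue *gapdhs* had 463 ± 72.9 CPM (GFP+) and 746 ± 139.9 CPM (GFP-) (log2FC 5.06 and -0.69, padj = 0.00015 and 0.30).

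Of neural crest and pigment genes, 5 of 14 tested members were higher and 1 lower. The crest factor *sox10* had 27.7, 23.5 and 22.7 CPM in GFP+ cells, against 14.5, 12.1 and 14.6 CPM in GFP- cells, all GFP+ above all GFP- (log2FC 0.84, SE 0.40, padj = 0.13), and the melanosome protein *pmela* had 1.13, 2.39 and 2.83 CPM in GFP+ cells, against 1.31, 2.69 and 2.80 CPM in GFP- cells (log2FC -0.10, SE 0.43, padj = 0.89). The higher members belong mostly to iridophores and xanthophores, the silver and yellow pigment cells: *pnp4a* had 55.8 ± 41.9 CPM (GFP+) and 4.57 ± 0.980 CPM (GFP-) (log2FC 3.61), *gch2* had a log2FC of 1.93, *tfec* 3.19 and *ltk* 2.90, and *ltk* did not pass without GFP+ replicate 3 or GFP- replicate 3 (padj 0.056 to 0.082). *tfap2a*, which crest, epidermis and retinal neurons use, was lower (log2FC -3.08, padj = 0.0014). The neural crest list had 3 higher members without GFP+ replicate 3 or GFP- replicate 3.

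Red blood cell genes were on the GFP- side, 0 of 15 tested members were higher in GFP+ and 11 lower (median log2FC -5.33). *alas2*, the first enzyme of haem synthesis in red cells, had 1.13, 2.63 and 1.38 CPM in GFP+ cells, against 40.6, 41.9 and 63.1 CPM in GFP- cells (log2FC -4.82, SE 0.39, padj = 5.8e-05). The anion exchanger of the red cell membrane has a pair of genes under the name *SLC4A1*: ENSDARG00000012881 had 0.132, 3.91 and 0.248 CPM in GFP+ cells, against 89.4, 102 and 148 CPM in GFP- cells (log2FC -6.29, SE 1.34, padj = 0.0037), and ENSDARG00000024560 had 1.97, 2.55 and 4.35 CPM in GFP+ cells, against 2.88, 2.66 and 3.03 CPM in GFP- cells (log2FC 0.05, SE 0.38, padj = 0.94). *gata1a*, the factor of the red lineage, had 1.24, 1.04 and 1.63 CPM in GFP+ cells, against 5.91, 5.29 and 5.96 CPM in GFP- cells (log2FC -2.14, SE 0.36, padj = 0.00093). The globin genes *hbae1.1*, *hbae1.3*, *hbae3* and *hbbe3* had a log2FC of -6.91, -7.47, -7.04 and -6.82, and their near-identical copies make the division of reads among them uncertain. *hbae1.3* had 0.158, 7.26 and 0.142 CPM in GFP+ cells, against 404, 330.3 and 620.0 CPM in GFP- cells, and GFP+ replicate 2 held most of the GFP+ level of these globins. Without GFP+ replicate 2 they had a log2FC of -9.71, -11.52, -9.79 and -10.78, and the *SLC4A1* gene ENSDARG00000012881 had -9.23. *sptb*, *tfr1a* and *slc25a37*, which other cells express as well, did not pass (log2FC 0.16, 0.02 and 0.06, padj = 0.85, 0.99 and 0.93). The summed level of the list was 42.1 to 125 CPM in the GFP+ and 1497 to 2797 CPM in the GFP- libraries, and GFP+ replicate 2 was the highest of the GFP+ libraries.

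For white blood cells and thrombocytes the shares are set beside those of all genes, 14.6% higher and 14.4% lower. They were 18.2% lower for macrophage and leukocyte genes and 14.3% higher for neutrophil genes. For thrombocyte genes they were 28.6% higher and 14.3% lower. Of macrophage and leukocyte genes, 0 of 11 tested members were higher and 2 lower, and with the replicate block 1 was lower. The macrophage receptor *csf1ra* had 0.342, 1.14 and 1.13 CPM in GFP+ cells, against 1.18, 2.30 and 0.659 CPM in GFP- cells (log2FC -0.67, SE 0.71, padj = 0.53), and the myeloid factor *spi1* had 1.97, 1.91 and 3.61 CPM in GFP+ cells, against 2.08, 3.70 and 0.692 CPM in GFP- cells (log2FC 0.20, SE 0.53, padj = 0.82). The macrophage list had 1 lower member without GFP+ replicate 2 and 0 without GFP+ replicate 1, GFP+ replicate 3, GFP- replicate 1 or GFP- replicate 2. Of neutrophil genes, 1 of 7 tested members were higher and 0 lower. Lysozyme (*lyz*) had 87.6, 43.3 and 35.6 CPM in GFP+ cells, against 48.0, 112 and 8.92 CPM in GFP- cells (log2FC -0.02, SE 1.22, padj = 0.99), the protease *mmp13a* had 0.316, 0 and 0 CPM (GFP+) and 0.180, 0.219 and 0 CPM (GFP-) and did not pass (padj = 0.91), and the higher gene was the protease *mmp9*, which other cells also make (log2FC 2.43, padj = 0.00051). Of thrombocyte genes, 2 of 7 tested members were higher and 1 lower, and 1 was higher with the replicate block. *itga2b* had 0, 0.452 and 0 CPM (GFP+) and 0.386, 0.384 and 0.132 CPM (GFP-) (padj = 0.60), *mpl* had 0.631, 0.665 and 0.708 CPM in GFP+ cells, against 0.822, 1.34 and 0.0988 CPM in GFP- cells (log2FC -0.19, SE 0.84, padj = 0.89), and *gp1bb* had 7.73, 7.71 and 7.08 CPM in GFP+ cells, against 8.87, 11.02 and 9.09 CPM in GFP- cells (log2FC -0.36, SE 0.23, padj = 0.26). The thrombocyte list had 1 higher member without GFP+ replicate 1, GFP- replicate 1 or GFP- replicate 2.

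Neuronal genes were lower in GFP+ almost without exception (0 of 22 tested members were higher and 21 lower, median log2FC -3.23). *elavl3*, an RNA-binding protein that marks young neurons, had 118, 85.9 and 113 CPM in GFP+ cells, against 1273, 1268 and 1846 CPM in GFP- cells (log2FC -3.79, SE 0.72, padj = 0.0018). Both *SNAP25* genes, which encode a protein of vesicle release, were lower: ENSDARG00000058117 had 8.84, 4.89 and 10.16 CPM in GFP+ cells, against 118, 61.6 and 99.4 CPM in GFP- cells (log2FC -3.55, SE 0.48, padj = 0.00029), and ENSDARG00000020609 had 18.04, 10.19 and 27.9 CPM in GFP+ cells, against 197, 100.2 and 301 CPM in GFP- cells (log2FC -3.42, SE 0.54, padj = 0.00068). Of the stathmin genes named *STMN1*, which encode a regulator of microtubules, ENSDARG00000033655 had 187, 84.9 and 183 CPM in GFP+ cells, against 1972, 1107 and 3062 CPM in GFP- cells (log2FC -3.76, SE 0.55, padj = 0.00041). The other, ENSDARG00000004169, which dividing cells use, had 694, 706 and 747 CPM in GFP+ cells, against 498, 365 and 619 CPM in GFP- cells (log2FC 0.53, SE 0.54, padj = 0.50), and it was the member that did not pass. The synaptic genes *syt1*, *sv2a* and *vamp2* had a log2FC of -3.03, -3.29 and -3.11. The summed level of the list was 1179 to 1493 CPM in the GFP+ and 5675 to 10618 CPM in the GFP- libraries.

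Neural progenitor genes had the same direction (0 of 13 tested members were higher and 11 lower, median log2FC -2.28). *sox2*, a factor of neural stem cells, had 11.3, 9.28 and 12.95 CPM in GFP+ cells, against 57.0, 41.6 and 64.3 CPM in GFP- cells (log2FC -2.28, SE 0.34, padj = 0.00044). Its relatives *sox3* and *sox19a* were lower too: *sox3* had 18.9, 19.8 and 28.7 CPM in GFP+ cells, against 195, 180.1 and 373 CPM in GFP- cells (log2FC -3.47, SE 0.37, padj = 9.8e-05), and *sox19a* had 19.8, 27.9 and 29.6 CPM in GFP+ cells, against 63.5, 108 and 223 CPM in GFP- cells (log2FC -2.35, SE 0.49, padj = 0.0033). Both genes named *PAX6*, the eye and brain factor, were lower (log2FC -3.34 and -4.36). The fractions did not overlap for any of these genes.

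Retinal genes did not all move (0 of 24 tested members were higher and 13 lower, median log2FC -2.34). *crx*, the factor of photoreceptor precursors and bipolar cells, had 2.24, 3.78 and 0.566 CPM in GFP+ cells, against 299, 217 and 311 CPM in GFP- cells (log2FC -6.96, SE 0.84, padj = 0.00017). *atoh7* and *vsx1*, factors of retinal progenitors and bipolar cells, had a log2FC of -6.97 and -7.99. Rhodopsin (*rho*), the rod pigment, had 0, 0 and 0 CPM (GFP+) and 10.7, 27.3 and 7.97 CPM (GFP-), at least 174-fold lower in GFP+ against the floor of 3 counts in each GFP+ library (padj = 0.00015). The cone transducin *gnat2* had 0.579, 0.638 and 4.35 CPM in GFP+ cells, against 0.720, 0.576 and 2.80 CPM in GFP- cells (log2FC 0.44, SE 0.79, padj = 0.73), and the cone arrestin *ARR3* had 10.5, 0.957 and 5.03 CPM in GFP+ cells, against 16.6, 24.1 and 37.6 CPM in GFP- cells (log2FC -2.25, SE 0.72, padj = 0.032). *ARR3* did not pass without GFP+ replicate 2, GFP+ replicate 3, GFP- replicate 2 or GFP- replicate 3 (padj 0.055 to 0.11). The cone genes *pde6c*, *arr3b* and *grk1b* did not pass (log2FC 0.20, -0.10 and -0.61). The summed level of the list was 65.0 to 99.7 CPM in the GFP+ and 881 to 1245 CPM in the GFP- libraries.

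Adhesion molecules that neurons use were lower as well (0 of 23 tested members were higher and 21 lower, median log2FC -2.7). *NCAM1* (ENSDARG00000056181) had 31.6, 29.0 and 31.3 CPM in GFP+ cells, against 183, 241 and 218 CPM in GFP- cells (log2FC -2.81, SE 0.39, padj = 0.00034), and the other gene of that name (ENSDARG00000007220) had 4.08, 2.66 and 7.36 CPM in GFP+ cells, against 15.11, 17.1 and 17.8 CPM in GFP- cells (log2FC -1.83, SE 0.42, padj = 0.0056). The neurexin *nrxn1a*, a presynaptic receptor, had 19.8, 19.9 and 22.9 CPM in GFP+ cells, against 174, 154 and 182 CPM in GFP- cells (log2FC -3.03, SE 0.45, padj = 0.00044). *cntn1*, a contactin of axons, had 1.39, 1.25 and 0.885 CPM in GFP+ cells, against 11.03, 5.07 and 6.98 CPM in GFP- cells (log2FC -2.7, SE 0.72, padj = 0.013) and did not pass without GFP+ replicate 3 (padj 0.055). The members that did not pass were *chl1b* and N-cadherin (*cdh2*), which heart muscle also uses and which had 515 ± 59.6 CPM (GFP+) and 700.0 ± 23.6 CPM (GFP-) (log2FC -0.44, padj = 0.44). Of kidney genes, 0 of 8 tested members were higher and 3 lower: the podocyte gene *nphs1* had 3.29, 2.77 and 3.01 CPM in GFP+ cells, against 3.29, 3.02 and 3.92 CPM in GFP- cells (log2FC -0.17, SE 0.33, padj = 0.74), while both *PAX2* genes, which the brain also uses, were lower, ENSDARG00000028148 with 5.05, 6.30 and 3.04 CPM in GFP+ cells, against 64.9, 44.4 and 60.0 CPM in GFP- cells (log2FC -3.55, SE 0.62, padj = 0.0012) and ENSDARG00000032578 with 1.604, 1.46 and 1.42 CPM in GFP+ cells, against 22.8, 24.9 and 20.9 CPM in GFP- cells (log2FC -3.93, SE 0.98, padj = 0.0092). The summed levels of neuronal, retinal and red cell genes in the GFP- libraries stand beside every result that is lower in GFP+, and their part in those results was not tested.

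**Figure D3:**
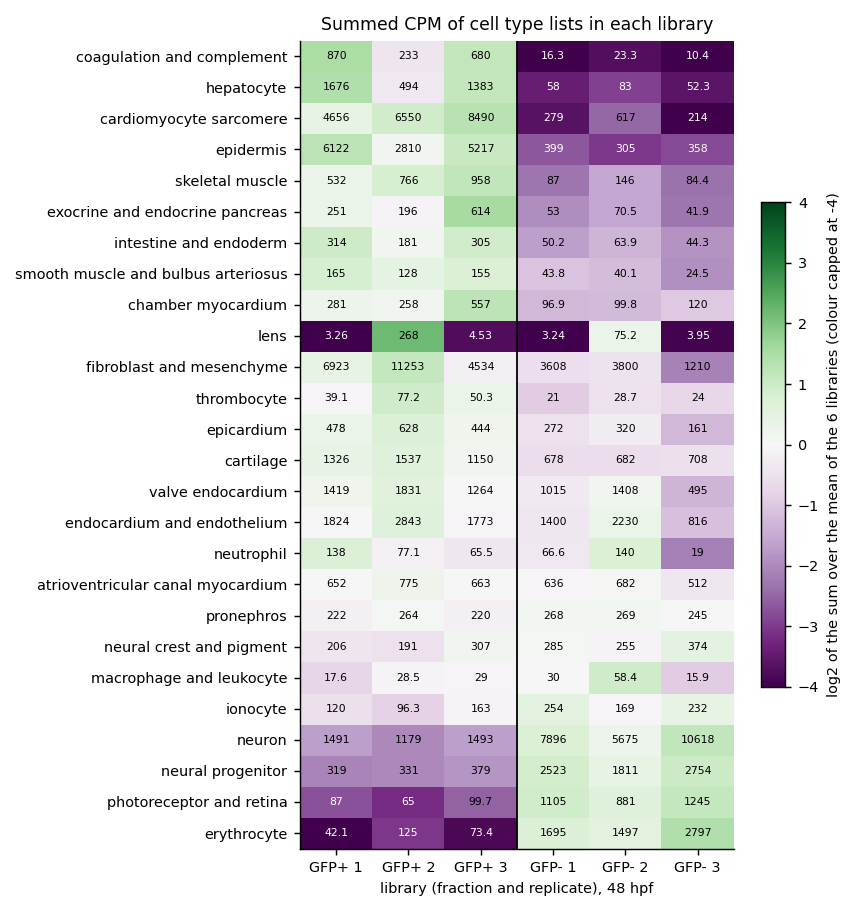
Summed CPM of each cell type list in the 3 GFP+ (left) and 3 GFP- (right) libraries at 48 hpf, coloured by its log2 ratio to the mean of the 6 libraries. Cardiomyocyte sums are 4656 CPM or more in GFP+ and 617 CPM or less in GFP-, neuron sums are 1493 CPM or less in GFP+ and 5675 CPM or more in GFP-, and the lens sum is high only in replicate 2 of both fractions.

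Bmp and Tgf-beta ligands signal from AVC myocardium to the endocardium, and they were mostly higher in GFP+ (11 of 17 tested members were higher and 1 lower, median log2FC 1.58). *bmp4* is given above with the canal markers. *tgfb2* had 4.05, 5.69 and 3.79 CPM in GFP+ cells, against 1.08, 2.82 and 0.955 CPM in GFP- cells (log2FC 1.47, SE 0.47, padj = 0.031), and it did not pass without GFP+ replicate 1, GFP+ replicate 2, GFP+ replicate 3, GFP- replicate 1 or GFP- replicate 3 (padj 0.051 to 0.13). *tgfb3* had 202, 318 and 191 CPM in GFP+ cells, against 121, 136 and 47.7 CPM in GFP- cells (log2FC 1.22, SE 0.40, padj = 0.034), and it did not pass without GFP+ replicate 1, GFP+ replicate 2, GFP+ replicate 3, GFP- replicate 1 or GFP- replicate 3 (padj 0.051 to 0.13). Both had all GFP+ libraries above all GFP- libraries. Other Bmp ligands were higher as well: *bmp2a* (log2FC 1.67), *bmp2b* (2.08), *bmp5* (2.20), *bmp6* (1.64), *bmp7b* (1.62) and *bmp10l* (3.98), while *bmp7a* and *bmp10* did not pass (log2FC 0.33 and 0.45). The lower ligand was *gdf11*, with 8.50 ± 2.38 CPM (GFP+) and 36.0 ± 11.3 CPM (GFP-) (log2FC -2.08, padj = 0.0019).

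Of receptors, 3 of 16 tested members were higher and 2 lower (median log2FC 0.67), and 6 were higher and 3 lower with the replicate block. In the main fit the shares were 18.8% higher and 12.5% lower, near the 14.6% and 14.4% of all genes. The type I receptor *BMPR1A* has a pair of genes: ENSDARG00000019728 had 183, 197 and 150.0 CPM in GFP+ cells, against 119, 134 and 121 CPM in GFP- cells (log2FC 0.50, SE 0.33, padj = 0.29), and ENSDARG00000105045 had 98.0, 152 and 86.9 CPM in GFP+ cells, against 63.0, 65.98 and 38.1 CPM in GFP- cells (log2FC 1.01, SE 0.42, padj = 0.087, block padj = 0.039). Of the *BMPR2* genes, type II receptors, ENSDARG00000011941 was lower with 28.1, 32.5 and 27.4 CPM in GFP+ cells, against 45.9, 60.7 and 53.2 CPM in GFP- cells (log2FC -0.86, SE 0.25, padj = 0.021), and it did not pass without GFP+ replicate 1, GFP+ replicate 3, GFP- replicate 2 or GFP- replicate 3 (padj 0.063 to 0.081). ENSDARG00000020057 had 76.5, 112 and 73.7 CPM in GFP+ cells, against 79.0, 139 and 88.5 CPM in GFP- cells (log2FC -0.23, SE 0.55, padj = 0.80). *tgfbr2b* had 81.9, 105.4 and 75.3 CPM in GFP+ cells, against 43.1, 62.6 and 20.1 CPM in GFP- cells (log2FC 1.06, SE 0.39, padj = 0.058) and passed with the replicate block (block padj = 0.019). *acvrl1*, an endothelial Bmp receptor, was higher with 28.4 ± 4.31 CPM (GFP+) and 7.73 ± 1.83 CPM (GFP-) (log2FC 1.87, padj = 0.00055). Without GFP- replicate 3 the number of higher receptors was 1.

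Of SMAD genes, which carry the signal to the nucleus, and Id genes, which Bmp induces, 5 of 15 tested members were higher and 2 lower. *smad9* had 90.5, 113 and 77.0 CPM in GFP+ cells, against 52.5, 62.5 and 31.0 CPM in GFP- cells (log2FC 0.94, SE 0.33, padj = 0.047) and did not pass without GFP+ replicate 1, GFP+ replicate 2, GFP+ replicate 3, GFP- replicate 1 or GFP- replicate 3 (padj 0.065 to 0.20). The inhibitor *smad6a* had 47.4, 85.9 and 51.4 CPM in GFP+ cells, against 34.9, 49.8 and 29.4 CPM in GFP- cells (log2FC 0.69, SE 0.35, padj = 0.16), and *smad1* was higher with 46.0 ± 2.80 CPM (GFP+) and 22.8 ± 0.600 CPM (GFP-) (log2FC 1.01, padj = 0.014). *id4* was lower, with 9.89, 3.75 and 8.18 CPM in GFP+ cells, against 54.8, 34.8 and 89.0 CPM in GFP- cells (log2FC -3.03, SE 0.59, padj = 0.0022), and *id1* and *id2a* did not pass (log2FC 0.61 and -0.12). The part of the higher neuronal sums of the GFP- libraries in the value of *id4* was not tested. The SMAD and Id list had 3 higher members without GFP- replicate 2, 2 without GFP+ replicate 1 or GFP+ replicate 3 and 1 without GFP+ replicate 2, GFP- replicate 1 or GFP- replicate 3. Of secreted Bmp antagonists and decoys, 6 of 11 tested members were higher and 0 lower. Chordin (*chrd*) had 6.52, 5.80 and 7.72 CPM in GFP+ cells, against 4.65, 5.67 and 5.70 CPM in GFP- cells (log2FC 0.32, SE 0.29, padj = 0.45). The copies of *grem1a*, Gremlin, were low: ENSDARG00000029546 had 0.763, 1.12 and 0.566 CPM in GFP+ cells, against 0.720, 0.466 and 0.922 CPM in GFP- cells (log2FC 0.23, SE 0.40, padj = 0.71), and ENSDARG00000090720 had 1.34, 0.213 and 1.42 CPM in GFP+ cells, against 3.52, 1.398 and 1.94 CPM in GFP- cells (log2FC -1.22, SE 0.59, padj = 0.14), and the last passed with the replicate block (block padj = 0.040). The decoy receptors *bambia* and *bambib*, which Bmp also induces, were higher (log2FC 1.31 and 1.63; *bambia* did not pass without GFP- replicate 3 (padj 0.066)), as were the noggin gene *nog2* (log2FC 1.88) and sclerostin (*sost*, 22.9 ± 5.24 CPM (GFP+) and 1.87 ± 0.232 CPM (GFP-), log2FC 3.61).

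The Notch pathway was lower more often than higher in GFP+ (3 of 20 tested members were higher and 11 lower, median log2FC -1.51). The ligand *jag1b* was higher, with 64.1, 98.1 and 56.9 CPM in GFP+ cells, against 35.3, 30.4 and 19.8 CPM in GFP- cells (log2FC 1.36, SE 0.37, padj = 0.016), and it did not pass without GFP+ replicate 2 or GFP- replicate 3 (padj 0.072 to 0.078). *hey1*, a Notch target that represses AVC genes in the chambers, had 47.2, 38.3 and 151 CPM in GFP+ cells, against 25.2, 31.3 and 36.72 CPM in GFP- cells, highest in GFP+ replicate 3 (log2FC 1.34, SE 0.51, padj = 0.067). The endothelial ligand *dll4* had 101, 104 and 109.9 CPM in GFP+ cells, against 92.4, 102 and 64.8 CPM in GFP- cells (log2FC 0.28, SE 0.26, padj = 0.47). Genes that neural progenitors are known to use were among the lower ones: the ligands *dla*, *dlb*, *dlc* and *dld* (log2FC -2.96, -3.00, -2.74 and -2.02), the target *her4.1* (-2.93), the receptors *notch1a* (-1.81) and *notch3* (-1.36), and the modifier *lfng* (-1.66). The receptor *notch2* had a log2FC of 0.92 (padj = 0.067) and passed with the replicate block (block padj = 0.0092), and the target *hey2* had 24.2 ± 5.76 CPM (GFP+) and 10.1 ± 3.06 CPM (GFP-) (log2FC 1.26, padj = 0.025) and did not pass without GFP+ replicate 2, GFP+ replicate 3, GFP- replicate 1 or GFP- replicate 3 (padj 0.057 to 0.12).

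Of Wnt ligands, 5 of 24 tested members were higher and 2 lower in GFP+, and 9 were higher with the replicate block. In the main fit the shares were 20.8% higher and 8.33% lower, against 14.6% and 14.4% of all genes. *wnt2bb* had 2.92, 3.83 and 4.67 CPM in GFP+ cells, against 0.257, 0.329 and 0.0988 CPM in GFP- cells (log2FC 4.02, SE 0.45, padj = 0.00012). *wnt5a*, a ligand of the non-canonical branch, had 1.58, 1.06 and 3.36 CPM in GFP+ cells, against 0.283, 0.0274 and 0.231 CPM in GFP- cells (log2FC 3.44, SE 0.75, padj = 0.0043). *wnt4* had 8.63, 4.999 and 6.87 CPM in GFP+ cells, against 1.90, 1.92 and 1.68 CPM in GFP- cells (log2FC 1.89, SE 0.32, padj = 0.00089). All of these had no overlap between the fractions. *wnt11r*, which acts in the polarity of heart muscle cells, was higher with 104 ± 9.31 CPM (GFP+) and 45.5 ± 8.09 CPM (GFP-) (log2FC 1.19), and *wnt3* and *wnt8b*, ligands of the brain, were lower (log2FC -2.06 and -1.34). *wnt3* did not pass without GFP+ replicate 1, GFP+ replicate 2, GFP- replicate 2 or GFP- replicate 3 (padj 0.070 to 0.17), and *wnt8b* did not pass without GFP+ replicate 1, GFP+ replicate 2 or GFP- replicate 3 (padj 0.068 to 0.085). *wnt9b*, a ligand of valve endocardium, had 46.6 ± 3.44 CPM (GFP+) and 27.6 ± 14.8 CPM (GFP-) (log2FC 0.76, padj = 0.39). Without GFP- replicate 2 the number of higher ligands was 8.

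Of Frizzled receptors, 5 of 13 tested members were higher and 3 lower. *fzd7a* had 265, 295 and 282 CPM in GFP+ cells, against 136, 147 and 112 CPM in GFP- cells (log2FC 1.09, SE 0.29, padj = 0.014) and did not pass without GFP- replicate 3 (padj 0.059). *fzd9b* had 122, 213 and 78.4 CPM in GFP+ cells, against 67.4, 52.7 and 65.3 CPM in GFP- cells (log2FC 1.16, SE 0.39, padj = 0.041), and it did not pass without GFP+ replicate 1, GFP+ replicate 2, GFP- replicate 1, GFP- replicate 2 or GFP- replicate 3 (padj 0.072 to 0.22) nor with the replicate block (block padj = 0.089). *fzd8a* had 55.8, 59.4 and 72.9 CPM in GFP+ cells, against 50.2, 44.1 and 48.8 CPM in GFP- cells (log2FC 0.39, SE 0.26, padj = 0.28). *fzd2* and *fzd7b* were higher (log2FC 1.32 and 1.42), and *fzd3a*, a receptor of axon guidance, was lower with 29.3 ± 2.84 CPM (GFP+) and 130.2 ± 24.9 CPM (GFP-) (log2FC -2.15). The Frizzled list had 3 higher members without GFP+ replicate 1, GFP+ replicate 2 or GFP- replicate 2 and 2 without GFP- replicate 3.

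Of Wnt inhibitors and targets, 8 of 17 tested members were higher and 2 lower (median log2FC 1.3). The secreted inhibitor *dkk1b* had 3.60, 4.71 and 6.51 CPM in GFP+ cells, against 1.08, 1.51 and 0.988 CPM in GFP- cells (log2FC 2.04, SE 0.71, padj = 0.047), and it did not pass without any 1 of the 6 libraries (padj 0.064 to 0.16). *sfrp1a*, a soluble Frizzled, had 41.4, 18.3 and 34.0 CPM in GFP+ cells, against 12.3, 13.5 and 12.2 CPM in GFP- cells (log2FC 1.3, SE 0.36, padj = 0.015), and it did not pass without GFP+ replicate 1, GFP+ replicate 3, GFP- replicate 1 or GFP- replicate 3 (padj 0.051 to 0.076). Other secreted inhibitors were higher too: *sfrp2* (log2FC 2.42), *sfrp5* (1.95), *wif1* (1.84), *dkk1a* (2.87) and *dkk2* (2.05). Targets of canonical Wnt signaling had other values: *axin2* had 144, 189.6 and 152 CPM in GFP+ cells, against 99.3, 124 and 120.5 CPM in GFP- cells (log2FC 0.50, SE 0.39, padj = 0.38), *nkd1* had a log2FC of 0.39 (padj = 0.48), and *lef1* was lower with 64.3 ± 8.08 CPM (GFP+) and 180.1 ± 79.1 CPM (GFP-) (log2FC -1.49, padj = 0.0046).

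**Figure D4:**
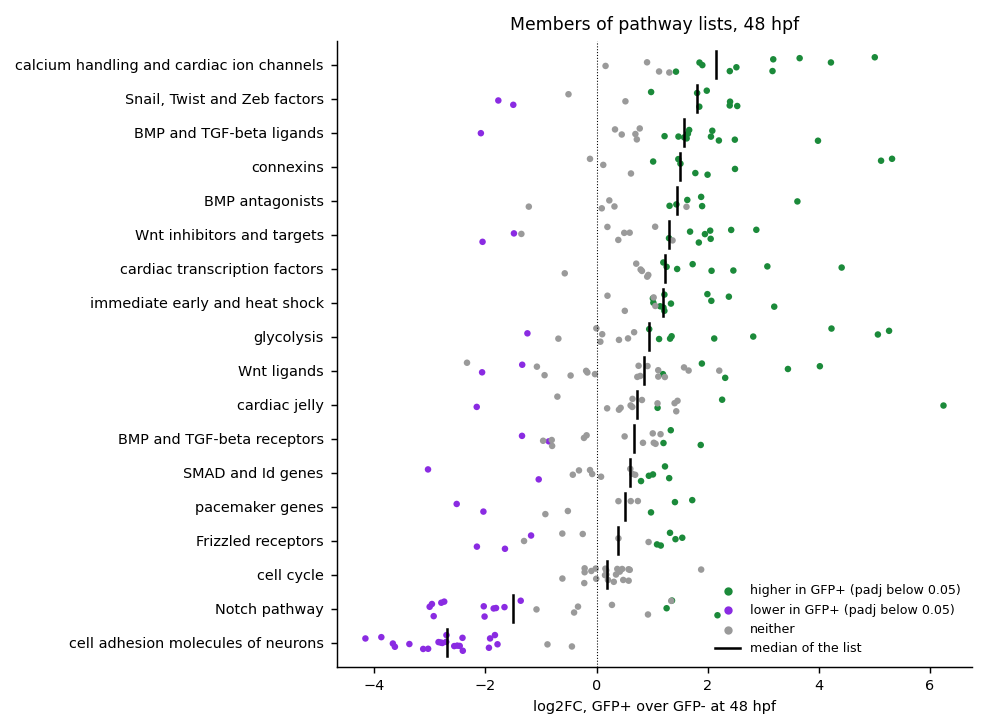
Each point is a gene of a pathway list, placed by its log2FC (GFP+ over GFP- at 48 hpf), in green where higher in GFP+ and in purple where lower at padj below 0.05, with list medians as black bars and genes at or under 3 counts in every library of a fraction left out. Notch and neuronal adhesion lists have medians of -1.51 and -2.70, the cell cycle list has no coloured point, and the remaining medians are above 0.

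No cell cycle gene passed edgeR's test: 0 of 22 tested members were higher and 0 lower. At an unadjusted p below 0.05, 1 was higher and 1 lower, and DESeq2's Wald test called 0 higher and 1 lower. Every GFP+ library lay above every GFP- library for 10 of the 22 members, against 27.8% of all genes. The reverse held for 1 member, against 27.4% of all genes. The summed level of the list was 5948 to 7577 CPM in the GFP+ and 5578 to 5833 CPM in the GFP- libraries. The proliferation marker *mki67* had 671, 1099 and 718 CPM in GFP+ cells, against 812, 927 and 761 CPM in GFP- cells (log2FC -0.01, SE 0.42, padj = 0.99), *pcna* had 1087, 1163 and 1182 CPM in GFP+ cells, against 967, 815 and 869 CPM in GFP- cells (log2FC 0.37, SE 0.40, padj = 0.53), and cyclin B (*ccnb1*) had 127, 147 and 138 CPM in GFP+ cells, against 125, 105.2 and 135 CPM in GFP- cells (log2FC 0.18, SE 0.29, padj = 0.70). Genes of the early stress response, which cell dissociation and sorting are known to induce, were higher in GFP+ (11 of 15 tested members were higher and 0 lower, median log2FC 1.20). *atf3*, a stress factor, had 918, 655 and 858 CPM in GFP+ cells, against 324, 263 and 456 CPM in GFP- cells (log2FC 1.22, SE 0.29, padj = 0.0068). The *JUNB* genes had 585, 588 and 490.3 CPM in GFP+ cells, against 272, 262 and 179.6 CPM in GFP- cells (ENSDARG00000074378, log2FC 1.22, SE 0.35, padj = 0.020) and 1760.5, 1996 and 1444 CPM in GFP+ cells, against 1056, 829.6 and 675 CPM in GFP- cells (ENSDARG00000104773, log2FC 1.02, SE 0.34, padj = 0.040). The first did not pass without GFP+ replicate 1, GFP+ replicate 2 or GFP- replicate 3 (padj 0.055 to 0.11), and the other did not pass without any 1 of the 6 libraries (padj 0.055 to 0.17). The chaperones *hsp90aa1.1* and *hspb1*, which muscle also uses, had a log2FC of 2.38 and 3.20. This rise moved with the GFP+ fraction beside every gene group that is higher there, and its part in those results was not tested. The stress list had 7 higher members without GFP+ replicate 2 or GFP- replicate 1, 6 without GFP+ replicate 1 and 5 without GFP- replicate 3.

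The largest single differences lay in the same groups. They were taken among genes with a padj below 0.05, an absolute log2FC above 2, an average log2 CPM over the 6 libraries of no less than 3, and fractions that did not overlap. Of the 15 largest rises, *fgg* (a fibrinogen chain), *tfa*, *cfhl4* (a complement regulator), *serpinf2b* (a plasmin inhibitor), *apoa2* (an apolipoprotein), *c3a.1* and *ftcd* (an enzyme of histidine breakdown) are known from liver, with a log2FC of 6.05, 5.91, 5.74, 5.67, 5.66, 5.65 and 5.53. *fgg* led with 125, 33.3 and 127 CPM in GFP+ cells, against 1.08, 2.66 and 0.560 CPM in GFP- cells (log2FC 6.05, SE 0.67, padj = 0.00011). *nppb*, *myl7*, *cmlc1*, *nppa* and *tnni1b* are heart muscle genes (log2FC 5.86, 5.61, 5.56, 5.56 and 5.39), *icn2* and *cyt1l* are epidermal (log2FC 5.62 and 5.48), and *rbp2b*, a retinol-binding protein, had a log2FC of 6.0. Of the 15 largest falls, 8 were red cell genes: 3 *HBE1*-named globins (ENSDARG00000115405, ENSDARG00000087390 and ENSDARG00000113599, log2FC -7.48, -7.31 and -6.67), *hbae1.1*, *hbae1.2*, *hbae1.3* and *hbae3*, and a *SLC4A1* gene, and *hbae1.2* had a log2FC of -7.35. Without GFP+ replicate 2 the *HBE1* genes had a log2FC of -12.59, -12.02 and -11.49, and *hbae1.2* -10.55. The remaining 7 are factors of retina or brain: *vsx1* had 0.342, 1.04 and 0.354 CPM in GFP+ cells, against 155, 135 and 159 CPM in GFP- cells (log2FC -7.99, SE 0.64, padj = 5.8e-05), and *crx*, *tfap2e*, *neurod4*, *bhlhe22*, *nr2e3* and *barhl1a* had a log2FC of -6.96, -5.90, -5.89, -5.76, -5.56 and -5.50.

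Families that share a symbol stem gave a view that did not start from cell types. Of 386 families with 8 or more tested members, 34 had at least 40% of their members higher in GFP+ and 46 had at least 40% lower, against 14.6% and 14.4% of all genes. The 34 include the connexin stem (cx), named only through the study's supplement, so its share is not independent evidence. A shared stem need not mean related genes, as with the stem l among the 46. On the GFP+ side stood keratins (krt, 15 of 18 higher), angiopoietin-like proteins (angptl, 8 of 10), annexins (anxa, 12 of 17) and small heat shock proteins (hspb, 7 of 10). Collagens (col, 28 of 53), Bmp genes (bmp, 8 of 16) and claudins (cldn, 10 of 20) stood there as well. So did genes named f with a number (f, 14 of 23), which include coagulation factors such as *f2* but were not checked to be only these. Enzymes that handle lipids and foreign compounds were there too, with cytochromes P450 (cyp, 36 of 74), glucuronosyltransferases (ugt, 16 of 25) and aldehyde dehydrogenases (aldh, 11 of 20). The members with the highest log2FC in 5 of these families, leaving out genes at or under 3 counts in every library of a fraction, were *krt91* (log2FC 5.72, padj = 0.00085), *anxa2b* (log2FC 5.17, padj = 0.00091), *hspb11* (log2FC 6.06, padj = 0.00061), *cyp2k16* (log2FC 6.33, padj = 0.00014) and *ugt1a1* (log2FC 6.29, padj = 7.7e-05). Of them *krt91* was highest in GFP+ replicate 1, with a log2FC of 3.71 without that library. The collagen with the highest log2FC, *col10a1a*, had 0, 0.106 and 19.997 CPM in GFP+ cells, against 0.103, 0.0274 and 0 CPM in GFP- cells (log2FC 7.06, SE 2.04, padj = 0.020), so GFP+ replicate 3 alone held it, and without that library the log2FC was 0.18 (padj = 0.95). Angiopoietin-like proteins are secreted regulators of lipid use and vessels, and their median log2FC was 1.57. With total counts in place of TMM, 5 of the angiopoietin-like genes, 18 of the collagens and 11 of the glucuronosyltransferases were higher.

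Among families lower in GFP+ were several that neurons and patterning use, and others such as mapk (10 of 20 lower) and kctd (11 of 22). Total counts in place of TMM gave 7 lower mapk and 8 lower kctd genes. All 8 AMPA receptor subunits (gria) and all 8 contactins (cntn) were lower, as were 9 of 13 NMDA receptor subunits (grin), 15 of 23 synaptotagmins (syt), which sense calcium for vesicle release, 7 of 8 RNA-binding CELF genes (celf) and 41 of 57 protocadherins (pcdh). Voltage-gated calcium channel subunits (cacna, 14 of 27 lower) ranged from *cacna1f* (log2FC -3.71, padj = 0.0073) to *cacna1sb* (log2FC 3.58, padj = 0.0034), a muscle subunit. Of homeobox and other patterning factors, 9 of 11 Iroquois genes (irx), 12 of 15 POU genes (pou), 11 of 15 Pax genes (pax), 7 of 10 LIM homeobox genes (lhx) and 15 of 27 Sox genes (sox) were lower. In the irx family no member was higher, and the log2FC ran from -3.20 to -0.96. Of 12 sine oculis homeobox genes, which pattern eye and muscle, 6 were higher and 4 lower, from *six1a* (log2FC 2.83, padj = 0.00027) to *six7* (log2FC -4.25, padj = 0.00027). Nkx genes (nkx) did so too, with 5 higher, led by *nkx2.7* (log2FC 4.41, padj = 0.0022), and 8 lower, led by *nkx1-1* (log2FC -4.65, padj = 0.0016). These counts used the names of genes alone, and the highest and lowest members were picked after their values were seen.

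**Figure D5:**
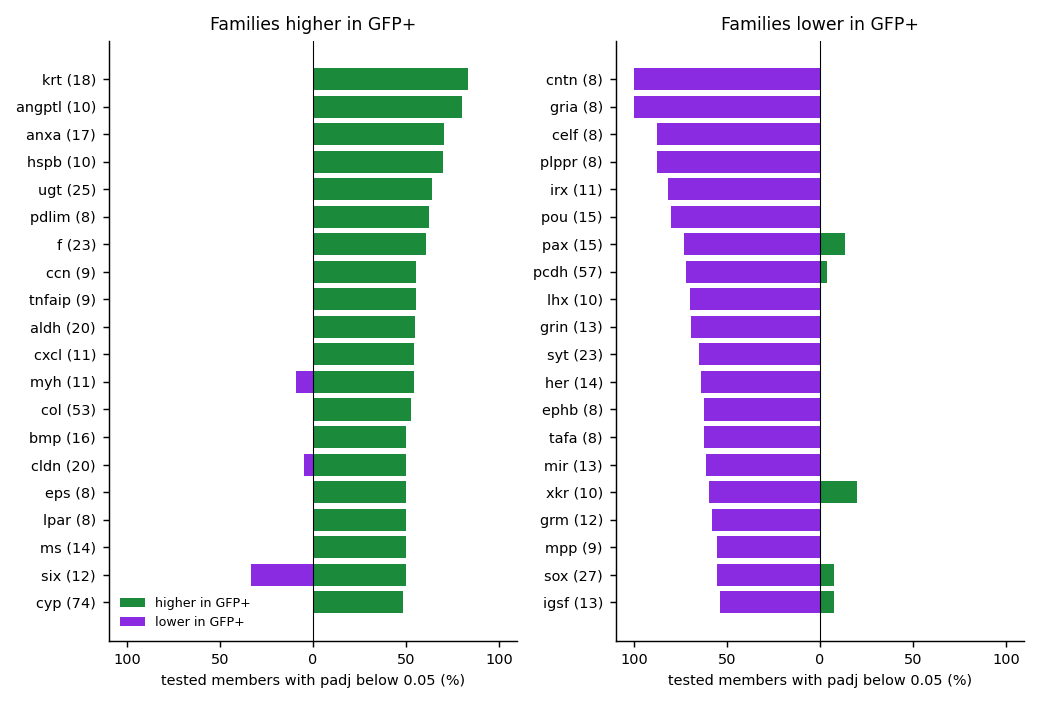
Bars give the percent of tested members with padj below 0.05 in the 20 families with the largest share higher in GFP+ (left panel) and lower in GFP+ (right panel), to the right of 0 where higher in GFP+ (green) and to the left where lower (purple), with the number of tested members in brackets. The connexin stem (cx) is left out. Keratins reach 83.3% higher, and gria and cntn reach 100% lower.

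The same contrast at 72 hpf, in the other 6 libraries, was set beside these differences, and the change of the log2FC between the stages was tested for each gene. That change had a padj below 0.05 for 8.17% of all genes tested and for 37 of the 130 leading genes of the lists, or 35 of them without GFP- 72 hpf replicate 1, a library that stands apart (TMM factor 0.575). Of the 26 cardiomyocyte genes, 12 changed their difference, and the median log2FC was 4.23 at 48 hpf and 1.73 at 72 hpf. Of hepatocyte genes, 14 of 19 did so (median 3.55 at 48 hpf and 0.29 at 72 hpf), and of coagulation and complement genes 15 of 18 (median 5.14 and 0.72). Of neuronal genes, 1 of 22 did so (median -3.23 and -3.50). *fga*, *tfa*, *acta2*, *nkx2.5*, *myl7* and *krt4* were among the genes whose excess in GFP+ was larger at 48 hpf.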

How the data were processed

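RNA of sorted GFP+ and GFP- cells was measured as poly-A primed, full-length amplified cDNA (SMART-Seq v4, Nextera XT), which does not mark strand. Per the study's methods and the submitters' notes, the authors trimmed reads with Cutadapt 1.17 and quantified them with Salmon 0.9.1 on GRCz11, and the deposited values are whole-number counts per Ensembl gene. How transcript estimates were summed to genes is not given in the sources used here. The authors used DESeq2 1.29.13.

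Here the counts of all 12 libraries (27191 genes) were fitted as 4 groups with edgeR 4.0.16 (R 4.3.3): filterByExpr by group, TMM, and the quasi-likelihood test of GFP+ 48 hpf against GFP- 48 hpf over 23222 genes. Totals at 48 hpf were 25554971 to 35727715 counts, and no 2 of the 12 libraries were identical over their 66 pairs. GFP- 72 hpf replicate 1 stood apart (TMM factor 0.575) and bears on the 48 hpf comparison through the shared dispersion and, as all 72 hpf libraries do, through which genes were tested. Counts of genes past both thresholds used a padj below 0.05 and an absolute log2FC above 2, and lists, families and single genes used the padj alone. The scripts were tested on simulated data.

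The 44 lists and their members were chosen with earlier results of these data known. Some genes are on several lists, so list counts share members. Gene names came from the study's supplementary tables for 4147 genes and from a table of gene names for 21461 genes, and 634 of 668 list entries were matched. Of the tested genes named from the study's supplement 59.7% passed, against 23.1% of those named from the name table, so matching by name leans towards genes that passed. Where the table gives a symbol in capitals without a copy letter, all genes of that name were counted. The named genes were the first 3 of each list, the 15 largest rises and falls described in the text, and other members that were chosen for their role after their values were seen. A gene at or under 3 counts in every library of a fraction was given by its values, or, where the fraction was at 0, by a bound at 3 counts.

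In the study's methods, each replicate number stands for a set of all 4 fractions, so the numbers pair the samples. Deviations from the fraction means correlated at 0.0975, 0.314 and 0.157 for numbers 1, 2 and 3, and GFP+ replicate 1 correlated with GFP- replicate 3 at 0.0987. The main fit leaves the pairing by number out, and the fit with a replicate block is an alternative. The others were DESeq2 1.42.0 and its size factors, total counts, other filters, glmTreat, the 6 libraries alone, and each library left out. Promoter motifs were not analysed here. Values of some list members are not reported here.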

Additional observations from a re-analysis of the deposited data

Results flagged for a closer look

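Among the 130 leading genes, 37 had a difference between GFP+ and GFP- cells that changed from 48 to 72 hpf in the test of that change itself (padj below 0.05 over all genes, background 8.17%). Values here are the log2FC at 72 hpf minus the log2FC at 48 hpf, so a negative value means a lower log2FC at 72 hpf. Genes of liver, gut and pancreas that changed were *ins*, *prss1*, *fabp10a*, *fga*, *tfa*, *f2*, *c3a.1* and *foxa3* with -9.34, -6.87, -6.45, -5.41, -5.37, -4.68, -4.62 and -3.37, and *tfa* had a log2FC of 5.91 at 48 hpf and 0.54 at 72 hpf. Genes of heart, smooth and skeletal muscle were *tagln*, *acta2*, *myod1*, *nppb*, *myl7*, *pgam2*, *eno3*, *tnnt2a*, *aldoab*, *ckma* and *nkx2.5* with -6.60, -5.09, -4.55, -3.97, -3.79, -3.74, -3.27, -3.12, -2.99, -2.75 and -2.55, and *tagln* had a log2FC of 4.94 at 48 hpf and -1.66 at 72 hpf, while *myl7* had a log2FC of 5.61 at 48 hpf and 1.82 at 72 hpf. Genes of blood were *itga2b*, *mpl*, *spi1*, *alas2* and *gata1a* with -6.42, -5.81, -3.52, -3.09 and -2.33, and *mpl* had a log2FC of -0.19 at 48 hpf and -6.01 at 72 hpf. Genes of retina and nervous system were *ARR3*, *gnat2*, *SNAP25*, *NCAM1* and *sox19a* with -6.33, -5.89, -2.72, 1.92 and 3.53, where *SNAP25* is ENSDARG00000058117 and *NCAM1* is ENSDARG00000056181, and *gnat2* had a log2FC of 0.44 at 48 hpf and -5.45 at 72 hpf. Genes of signals and junctions were *wnt5a*, *wnt4*, *wnt2bb*, *cx43.4*, *fzd8a* and *grem1a* with -5.76, -3.03, -2.87, 1.69, 1.97 and 3.09, where *grem1a* is ENSDARG00000090720, and *wnt5a* had a log2FC of 3.44 at 48 hpf and -2.32 at 72 hpf. Of skin genes, *krt4* had -2.11 (a log2FC of 5.10 at 48 hpf and 2.99 at 72 hpf), and *trpv6* had a fitted value of 8.65, which depends on the prior count and is no bound, since *trpv6* had at most 3 counts in any GFP+ library at 48 hpf. With a replicate block shared by both stages 35 of the 37 passed and *prss1* (padj = 0.059) and *krt4* (padj = 0.058) did not. With total counts 31 passed, and *nppb*, *itga2b*, *krt4*, *cx43.4*, *fzd8a* and *NCAM1* did not (padj 0.051 to 0.19). Without GFP- 72 hpf replicate 1, an alternative chosen after seeing the data, 35 passed and *prss1* (padj = 0.11) and *nppb* (padj = 0.065) did not. Whether composition or expression changed between the stages was not tested.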

How the results depend on the processing

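The number of genes past both thresholds was 1005 (497 higher and 508 lower) when edgeR's glmTreat tested against a log2FC of 2, and 3002 to 3470 (1240 to 1566 higher, 1762 to 1950 lower) without 1 library, and it stayed within 1.5 times of 3474 in all other alternatives. Of list counts, which are of higher members unless stated, those that moved by over 1.5 times were as follows. With DESeq2's Wald test they were 5 of atrioventricular canal myocardium, 8 of Wnt ligands and 6 of cardiac jelly. With the replicate block they were 5 of atrioventricular canal myocardium, 3 of valve endocardium, 1 of macrophage and leukocyte (lower), 1 of thrombocyte, 2 of lens, 6 of BMP and TGF-beta receptors, 9 of Wnt ligands and 6 of cardiac jelly. With only the 6 libraries at 48 hpf they were 5 of atrioventricular canal myocardium, 3 of valve endocardium, 1 of macrophage and leukocyte (lower), 1 of thrombocyte, 5 of exocrine and endocrine pancreas, 7 of BMP and TGF-beta receptors, 9 of Wnt ligands and 7 of cardiac jelly. With total counts in place of TMM they were 1 of macrophage and leukocyte (lower), 1 of pacemaker genes, 1 of SMAD and Id genes and 2 of Frizzled receptors. With a minimum of 10 counts they were 1 of thrombocyte. Without 1 library the ranges were 1 to 2 for valve endocardium, 0 to 4 for endocardium and endothelium, 0 to 3 for epicardium, 0 to 2 for macrophage and leukocyte (lower), 1 to 2 for thrombocyte, 0 to 3 for lens, 3 to 5 for neural crest and pigment, 0 to 3 for exocrine and endocrine pancreas, 2 to 4 for cartilage, 4 to 9 for cardiac transcription factors, 1 to 2 for pacemaker genes, 5 to 8 for connexins, 1 to 4 for BMP and TGF-beta receptors, 1 to 3 for SMAD and Id genes, 4 to 8 for Wnt ligands, 2 to 5 for Frizzled receptors and 5 to 8 for immediate early and heat shock. Of 642 named genes, 384 passed, 282 of them in all 6 fits without 1 library and 375 with the replicate block, and none reversed. With the block 3338 of the 3474 calls were kept, and it moved no other list count by over 1.5 times. The median log2FC of all genes was 0.00344 to 0.0677 across the alternatives. Of the 19 lists with 0 lower members, none had more than 2 at an unadjusted p below 0.05 or more than 2 by DESeq2's Wald test, and of the 8 lists with 0 higher members none had more than 1 and 0. Levels at or under 3 counts limit any fold change.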

Other observations

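Further families on the GFP+ side hold cell adhesion and position genes. Of integrins, receptors for the matrix, 7 of 17 alpha and 6 of 14 beta genes were higher, led by *itga3a* (log2FC 3.55, padj = 0.00051) and *itgb1b.2* (log2FC 4.37, padj = 0.00012). Total counts in place of TMM gave 5 higher alpha and 5 higher beta genes, and the replicate block gave 9 and 4. Of hoxb genes, which pattern the body axis, 6 of 15 were higher, led by *hoxb7* (log2FC 1.65, padj = 0.019), which did not pass without GFP+ replicate 1, GFP- replicate 1 or GFP- replicate 3 (padj 0.053 to 0.088). Total counts gave 4 higher hoxb genes. Matrix metalloproteases (mmp) had 10 of 22 members higher and 2 lower, from *MMP23B* (log2FC 2.99, padj = 0.00022) to *mmp24* (log2FC -4.0, padj = 0.00063), and 4 were higher with total counts in place of TMM. Of chemokines of the cxcl family, 6 of 11 were higher, among them *cxcl8a* (log2FC 3.36, padj = 0.043), which passed without GFP+ replicate 2 but not without any other 1 of the libraries (padj 0.071 to 0.15). Fatty acid elongases (elovl) went both ways, with 5 higher and 4 lower of 11, from *elovl7a* (log2FC 4.53, padj = 0.00035) to *ELOVL4* (log2FC -4.03, padj = 7.7e-05). On the GFP- side, 9 of 14 hairy-related genes (her), 5 of 8 receptors for ephrins (ephb), 7 of 12 metabotropic glutamate receptors (grm) and 28 of 63 G protein-coupled receptors named gpr were lower. Total counts gave 24 lower gpr genes. The 13 tested loci named for microRNAs, of which 8 were lower, are poly-A transcripts that carry those names and not mature microRNAs. The members named at the ends of these ranges were chosen after their values were seen.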
